A study of Homo sapiens with 19 samples.

Results

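LTR2B sgRNA 1 was 1 of 4 single guide RNAs (sgRNAs) that the study designed to bring catalytically dead Cas9 (dCas9) to copies of LTR2B, a family of long terminal repeats left in the human genome by endogenous retroviruses. Its genomic sites were searched in hg38 on both strands of chromosomes 1 to 22, X and Y. A site was a stretch with at most 3 mismatches to the 20 nt of the sgRNA, followed directly by the protospacer-adjacent motif NGG (PAM), and no measured value entered the search. The search returned 213 sites, of 2379 found in the same way for all 4 sgRNAs. The other sgRNAs had 1012 (sgRNA 2), 599 (sgRNA 3) and 555 (sgRNA 4) sites. Of the 213 sites of sgRNA 1, 82 matched without a mismatch and are called perfect here, 89 had 1 mismatch, 16 had 2 and 26 had 3.

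The study asked whether LTR2B elements act as regulatory elements in leukaemia cells and silenced them together with dCas9 fused to the KRAB repressor domain. Peak lists of 5 of its 19 samples were used, each from 1 chromatin immunoprecipitation sequencing (ChIP-seq) library without a replicate. The dCas9 list came from K562, a chronic myeloid leukaemia line. These cells had received a lentivirus for KRAB-dCas9 and mCherry under the SFFV promoter. They had then received the LTR2B sgRNAs in a lentiviral vector with blue fluorescent protein, and had been sorted for both colours. How the 4 sgRNAs were divided over vectors is not stated in the methods of the study. The other 4 lists were for H3K27ac, the acetylation of a histone H3 lysine that is found at enhancers and promoters in use, and came from cells without any LTR2B sgRNA: untransduced HL-60 and Molm13, and OCI-AML3 and K562 with KRAB-dCas9 and an empty sgRNA vector. HL-60, Molm13 and OCI-AML3 are acute myeloid leukaemia lines. The cells that received dCas9 were sorted populations, not clones. The dCas9 sample with the empty vector was not analysed here, and no list gives the number of reads behind it.

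In CRISPR interference, dCas9 is guided to DNA that pairs with the sgRNA next to a PAM, stays bound without cutting, and the fused KRAB domain recruits repressive chromatin. Pairing starts at the PAM, so mismatches in the adjacent seed are generally less tolerated than mismatches at the far end. An endogenous retrovirus carries a copy of its long terminal repeat at either end, solitary repeats remain where the interior has been lost, and the copies of a family share much of their sequence. A single sgRNA can therefore have many sites, and several sgRNAs can have sites in the same copy. All 4 sgRNAs were delivered to the same cell population, so a peak near several sites cannot be assigned to 1 sgRNA by its presence alone. Sorting for blue fluorescence does not show which of the sgRNAs a cell carried. The share of cells with each sgRNA is not given in the sources used here, and the comparisons between sgRNAs do not account for it.

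The sgRNA sequences as the study lists them are given 5′ to 3′, because the relative position of their sites carries the main result.
sgRNA 1: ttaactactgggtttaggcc
sgRNA 2: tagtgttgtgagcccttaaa
sgRNA 3: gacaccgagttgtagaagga
sgRNA 4: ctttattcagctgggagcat

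The next sequences are genomic sites of sgRNA 1 in hg38, read along the strand that matches the sgRNA and followed by the PAM. They were chosen to show the perfect class, the most frequent mismatch (G10A) and every covered site with more than 1 mismatch. The A7G site lay at a peak summit, as did a G10A site on chromosome 4 with the sequence printed for G10A. The T14G site is an uncovered example and had no summit within 600 bp. Capitals mark the mismatched bases and the PAM, and a change is written as the base of the sgRNA, its position in the sgRNA (position 1 is the 5′ end), and the base of the site.
perfect, chr7:125454776-125454795, minus strand: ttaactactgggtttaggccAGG
G10A, chr5:82273589-82273608, plus strand: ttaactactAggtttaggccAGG
A7G, chr10:97555787-97555806, plus strand: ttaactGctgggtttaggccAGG
T14G, chr5:23420409-23420428, plus strand: ttaactactgggtGtaggccAGG
T6G and G10A, chr14:102056141-102056160, minus strand: ttaacGactAggtttaggccAGG
A3C and G11A, chr1:1412575-1412594, plus strand: ttCactactgAgtttaggccAGG
C5T and G10A, chr19:52694465-52694484, minus strand: ttaaTtactAggtttaggccAGG
A4T, G10A and G17C, chr19:54959025-54959044, plus strand: ttaTctactAggtttaCgccAGG

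The sites of sgRNA 1 were rarely alone. Another of the 4 sgRNAs had a site within 600 bp (start to start) of 198 of the 213 sites, and of all 82 perfect sites. Of the 213 sites, 107 had sites of all 3 other sgRNAs beside them, 77 had sites of 2, 14 had a site of 1 and 15 had none. The 15 sites without a neighbour were mismatched, 12 of them at 3 positions and 3 at 1 position.

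The neighbours lay mostly at near-constant distances, on the 5′ side of the sgRNA 1 protospacer. The nearest was sgRNA 2, most often 194 bp away on the opposite strand, and 158 of its 168 neighbouring sites were within 10 bp of that distance. sgRNA 4 lay most often 268 bp away, with 131 of 138 sites within 10 bp, and sgRNA 3 lay 292 bp away, with 174 of 183 sites within 10 bp. All but 1 of the neighbours of each of these 2 sgRNAs were on the strand of sgRNA 1. At these distances the sites of sgRNAs 2 to 4 lay within about 100 bp of each other, and the sgRNA 1 site lay apart from them. Perfect neighbours were common: of the 82 perfect sgRNA 1 sites, 47 had a perfect site of sgRNA 2, 25 of sgRNA 3 and 36 of sgRNA 4.

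A dCas9 peak overlapped the protospacer (by at least 1 bp, called covered here) at 79 of the 213 sites, 37.1% (95% Wilson interval 30.9 to 43.8). Over the sites of all 4 sgRNAs the share was 27.2%. By number of mismatches, 42 of 82 perfect sites were covered (51.2%, 40.6 to 61.7), 33 of 89 sites with 1 mismatch (37.1%, 27.8 to 47.5), 3 of 16 with 2 (18.8%, 6.59 to 43.0) and 1 of 26 with 3 (3.85%, 0.682 to 18.9). The share was lower at each further mismatch, but no neighbouring pair of classes differed beyond counting error. The odds ratio was 1.78 for 0 against 1 mismatch (95% interval 0.926 to 3.43, adjusted p = 0.200), 2.53 for 1 against 2 (0.630 to 14.9, adjusted p = 0.252) and 5.52 for 2 against 3 (0.398 to 315, adjusted p = 0.220), by two-sided Fisher's exact tests adjusted over the 3. Just outside the search limit, a dCas9 peak overlapped 0 of the 231 sites with 4 mismatches, which allows a share of up to 1.30%. Sites are not replicates, and all intervals and tests over sites describe this 1 library and cover counting error only.

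Perfect sites of sgRNA 1 were covered less often than those of all 4 sgRNAs together. Perfect sites of all 4 sgRNAs were covered in 76.0% of cases, against 51.2% for sgRNA 1, 86.4% for sgRNA 2 (95 of 110), 91.3% for sgRNA 3 (73 of 80) and 73.9% for sgRNA 4 (116 of 157). Since many sites lie in the same copies, the test used loci (sites joined within 600 bp) that were perfect for only 1 of the 2 sgRNAs compared. At such loci the sgRNA 1 site was covered at 11 of 35, against 52 of 63 for the sgRNA 2 site (odds ratio 0.100, 0.0329 to 0.280, adjusted p = 1.0e-06, Fisher's exact test). Against sgRNA 3 the counts were 22 of 56 and 47 of 54 (odds ratio 0.0988, 0.0317 to 0.271, adjusted p = 5.4e-07, Fisher's exact test). Against sgRNA 4 they were 23 of 45 and 80 of 119, which did not differ beyond counting error (odds ratio 0.512, 0.239 to 1.09, adjusted p = 0.0705, Fisher's exact test). Loci with perfect sites of other sgRNAs outside the pair were kept. The sites of sgRNAs 2 to 4 lay close together and apart from sgRNA 1, so a peak at 1 of them can cover the others as well. The coverage tests therefore do not correct for the layout of the sites.

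Coverage of perfect sgRNA 1 sites varied with their neighbours. With a perfect site of another sgRNA within 600 bp, 40 of 68 were covered, and without one 2 of 14 (odds ratio 8.37, 1.67 to 82.7, p = 0.00292, two-sided Fisher's exact test). Of the 14 without one, 2 lay on the Y chromosome, which K562 cells lack, and with Y left out the counts were 40 of 68 and 2 of 12 (odds ratio 6.98, p = 0.0105, Fisher's exact test). The call was lost and the direction turned when a summit within 200 bp was required, with 9 of 68 against 2 of 14 (odds ratio 0.916, p = 1, Fisher's exact test). By the number of other sgRNAs with a perfect site, 2 of 14 were covered with none, 18 of 36 with 1, 14 of 24 with 2 and 8 of 8 with 3. Perfect sgRNA 1 sites were covered at 20 of 25 sites with a perfect sgRNA 3 site beside them and at 22 of 57 without one. The corresponding counts were 31 of 47 and 11 of 35 for sgRNA 2, and 19 of 36 and 23 of 46 for sgRNA 4. None of the 15 sgRNA 1 sites without any neighbour was covered, and a count of 0 in 15 allows a share of up to 20% (3 sites).

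The position of the peak summit, the base with the highest signal in a peak, separated sgRNA 1 from the other sgRNAs more clearly than coverage did. A summit lay within 600 bp of 70 of the 82 perfect sgRNA 1 sites (85.4%), but within 100 bp of the protospacer centre at 5 of 82 (6.10%, 2.63 to 13.5) and within 50 bp at 3. For perfect sites of the other sgRNAs, a summit lay within 100 bp at 91 of 110 (82.7%, 74.6 to 88.7) for sgRNA 2, at 71 of 80 (88.8%, 80.0 to 94.0) for sgRNA 3 and at 115 of 157 (73.2%, 65.8 to 79.6) for sgRNA 4. Where a summit was within 600 bp, its median distance was 237 bp from the perfect sgRNA 1 site, 44.5 bp from the sgRNA 2 site, 20.5 bp from the sgRNA 3 site and 23.5 bp from the sgRNA 4 site. With a summit within 100 bp as the criterion, the same loci gave 2 of 35 for sgRNA 1 against 51 of 63 for sgRNA 2 (adjusted p = 1.3e-13), 5 of 56 against 46 of 54 for sgRNA 3 (adjusted p = 2.6e-16) and 4 of 45 against 80 of 119 for sgRNA 4 (adjusted p = 7.2e-12), by Fisher's exact tests. This criterion was chosen after the data were seen. The sites of sgRNAs 2 to 4 lay within about 100 bp of each other. A summit near 1 of them can therefore count for the others as well, but rarely for sgRNA 1. Only loci perfect for both sgRNAs of a pair were left out, so these tests do not correct for the layout of the sites.

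The 8 loci with perfect sites of all 4 sgRNAs show the arrangement within single loci. A peak covered the sgRNA 1 site at all 8, with a fold enrichment over the local background of 10.9 to 26.3. The summit lay 233.5 to 332.5 bp from the sgRNA 1 site, 39.5 to 139.5 bp from the sgRNA 2 site, 4.5 to 58.5 bp from the sgRNA 3 site and 1.5 to 65.5 bp from the sgRNA 4 site. The sgRNA 1 site was the farthest of the 4 from the summit at each of these loci, and it was covered by the flank of a peak 527 to 641 bp wide. Because the sites of sgRNAs 2 to 4 lay close together and apart from sgRNA 1, this order cannot be separated from the layout of the sites.

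Over all 161 dCas9 peaks with an sgRNA 1 site within 600 bp of the summit, the site nearest to the summit belonged to sgRNA 2 at 53 peaks, to sgRNA 3 at 51, to sgRNA 4 at 50 and to sgRNA 1 at 7 (4.35%). Restricted to the 74 of these peaks whose sgRNA 1 site was perfect, sgRNA 1 was the nearest at 5. Both counts carry the same limit of layout. The 7 peaks centred on sgRNA 1 were narrow, 78 to 164 bp with a median of 98 bp, and had a fold enrichment of 5.59 to 10.5 (median 7.09). The 154 others had a median fold enrichment of 11.3 (3.57 to 26.3), and their width was 396 bp in the median. Over all 393 dCas9 peaks the median fold enrichment was 7.62 and the median width 206 bp.

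The peaks centred on sgRNA 1 came in pairs at 6 of the 7 loci, a narrow one over the sgRNA 1 site and a second one over the group of other sites. At chr10:97555731-97555848, in an intron of UBTD1, the narrow peak had its summit 3.5 bp from the A7G site and a fold enrichment of 5.98, and the second peak, at chr10:97555316-97555642, reached 15.9. At chr4:69051001-69051084, near UGT2B7, which encodes a glucuronosyltransferase, the values were 7.13 over a G10A site and 13.04 for the second peak. The other 4 pairs lay over perfect sgRNA 1 sites. The values were 10.5 and 11.9 near CEP70 (chr3:138597738-138597823), 8.18 and 14.7 in LINC00240 (chr6:27052648-27052770), and 5.997 and 8.56 in CCDC146 (chr7:77304979-77305056). The last pair, at chr1:206058418-206058581 in an intron of RHEX, a gene named for its part in erythroid cell expansion, was the one in which the peak over sgRNA 1 was the higher, with 7.09 against 3.57. The lists rest on uniquely mapped reads. Within 250 bp of the 6 sgRNA 1 sites, 46.7% (RHEX) to 88.0% of 75-base stretches occurred once in the genome. The median at covered perfect sites was 93.2%, and 46.7% was the lowest value of all 82 perfect sites. Whether such a pair is 1 broader peak with a gap in mapped reads was not tested.

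The 14 perfect sgRNA 1 sites without a perfect neighbour bear most directly on sgRNA 1 itself. At 2 of them the peak was centred on sgRNA 1. These were the RHEX site (chr1:206058568-206058587), where sgRNA 2 had 1 mismatch, sgRNA 3 had 2 and sgRNA 4 had no site, and chr5:42819467-42819486 in SELENOP, which encodes the selenium carrier of plasma. At the SELENOP site each of the other sgRNAs had 2 mismatches, and 1 narrow peak of 98 bp (fold enrichment 5.59, q = 2.5e-05) stood alone with its summit 18.5 bp from sgRNA 1. Within 250 bp, 93.9% of 75-base stretches were unique at the SELENOP site but only 46.7% at the RHEX site, which limits what the peaks at RHEX show. At 4 further sites a summit was 210.5 to 296.5 bp away and the peak did not reach sgRNA 1. The remaining 8 had no summit within 600 bp, and 2 of these lay on the Y chromosome, which leaves 6 elsewhere. Over loci (which chain sites, so that they can be longer than 600 bp) with a perfect site of 1 sgRNA only, a summit lay within 100 bp of that site at 2 of 13 loci for sgRNA 1, at 20 of 24 for sgRNA 2 (adjusted p = 0.00027), at 16 of 19 for sgRNA 3 (adjusted p = 0.00028) and at 42 of 75 for sgRNA 4 (adjusted p = 0.014), by Fisher's exact tests of sgRNA 1 against each, which were added once the data had been seen. Without the Y chromosome the counts were 2 of 11 for sgRNA 1, 20 of 23 for sgRNA 2 (adjusted p = 0.00055), 16 of 19 for sgRNA 3 (adjusted p = 0.0018) and 42 of 72 for sgRNA 4 (adjusted p = 0.021), by the same Fisher's exact tests. Mismatched sites of the other sgRNAs remained at such loci. A summit at 1 of them can count within 100 bp among sgRNAs 2 to 4, but rarely for sgRNA 1.

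Of the 40 perfect sgRNA 1 sites that were not covered, 28 had a summit within 600 bp. The gap from the protospacer to the nearest peak edge was 4 to 350 bp at these 28 sites (median 93.5 bp), and it was at most 100 bp at 16. The nearby peaks were lower at uncovered than at covered perfect sites, with a median fold enrichment of 9.32 (4.06 to 21.0, 28 sites) against 12.3 (5.59 to 26.3, 42 sites), with ranges that overlapped. The summit was about as far away in both, with medians of 234.5 and 238.5 bp. Among sites with a summit within 600 bp, the peak reached the protospacer at 42 of 70 perfect sites (60%) and at 33 of 67 sites with 1 mismatch (49.3%). This difference did not exceed counting error (odds ratio 1.54, 0.744 to 3.22, p = 0.232, two-sided Fisher's exact test, likewise added).

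The height of the covering peak was not shown to differ with the match to sgRNA 1. The 42 peaks over perfect sites had a median fold enrichment of 12.3 (5.59 to 26.3) and the 37 over mismatched sites one of 13.04 (5.21 to 23.6). The difference of the medians was -0.746 (p = 0.680, two-sided permutation test over peaks).

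At the level of whole loci, a peak anywhere in the locus was more frequent where the sgRNA 1 site was perfect. A peak overlapped a site of any of the 4 sgRNAs at 71 of 82 loci with a perfect sgRNA 1 site, at 84 of 130 with a mismatched one and at 114 of 1017 without one. Loci with a perfect sgRNA 1 site also held better matches to the other sgRNAs. Within 7 informative strata of the fewest mismatches among sgRNAs 2 to 4 and of how many of them had a site, the Mantel-Haenszel odds ratio for perfect against mismatched was 2.90 (p = 0.0326, two-sided exact conditional test), against 3.51 without strata (1.64 to 8.11). With the loci on the Y chromosome left out, the stratified odds ratio was 2.49 and did not pass the test (p = 0.0747, exact conditional test). Without a perfect site of another sgRNA, the locus had a peak at 6 of 13 loci for a perfect sgRNA 1 site (2 of the 13 on Y), 8 of 41 for a mismatched one and 66 of 935 without one. These loci also differ in how closely the whole copy resembles the sgRNA targets, and its part in the difference was not tested.

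Among the 89 sites with 1 mismatch, 29 different substitutions occurred at 18 positions, and 1 of them, G10A, accounted for 42 sites. G10A sites were covered at 21 of 42, close to the share of perfect sites, and sites with another single substitution at 12 of 47. A perfect site of another sgRNA lay within 600 bp of 39 of the 42 G10A sites, but of 72 of all 89 sites with 1 mismatch. The part of such neighbours in this contrast was not tested, so the counts do not show that sgRNA 1 tolerated G10A. Both sites with T2C and both with A7G were covered, as were 2 of 4 with C19T. None of the 4 T14G sites and none of the 4 C19G sites was covered. The T14G sites had no summit within 600 bp although each had a perfect site of another sgRNA beside it. However, 3 of the 4 lay on chromosome X in copies where no 75-base stretch within 250 bp occurs once in the genome, and the lists rest on uniquely mapped reads. The 4 C19G sites were 2 sites in the region that X and Y share, each listed on both chromosomes, and no such stretch was unique there either when both copies were counted. Both X copies nevertheless had a dCas9 summit within 600 bp, 227.5 and 250.5 bp away, with a fold enrichment of 8.41 and 11.8, and the Y copies had none. How this bears on the T14G and C19G counts was not tested.

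Sites whose mismatch lay in the 10 positions next to the PAM (11 to 20) were covered less often, 7 of 32 (21.9%, 11.02 to 38.8), than those with a mismatch at positions 1 to 10, 26 of 57 (45.6%, 33.4 to 58.4). The odds ratio was 0.338 (0.106 to 0.971, p = 0.0389, two-sided Fisher's exact test). Among sites with a perfect neighbour the counts were 7 of 26 and 24 of 46, and among those without one 0 of 6 and 2 of 11. Within these 2 strata the odds ratio was 0.304 (p = 0.0331, exact conditional test). The call varied with the boundary, with G10A and with the Y chromosome. With positions 13 to 20 as the PAM-proximal part the counts were 4 of 25 against 29 of 64 (odds ratio 0.233, p = 0.0139, Fisher's exact test), and with positions 9 to 20 they were 28 of 77 against 5 of 12 (p = 0.755, Fisher's exact test). Without the G10A sites they were 7 of 32 against 5 of 15 (p = 0.481, Fisher's exact test). Without the sites on the Y chromosome, which K562 cells lack, they were 7 of 28 against 26 of 56 (odds ratio 0.389, p = 0.0639, Fisher's exact test). Copies in which under 50% of the 75-base stretches were unique were more frequent in the PAM-proximal class, 7 of 32 against 4 of 57, and without them the counts were 7 of 25 and 26 of 53 (p = 0.0914, Fisher's exact test). Since most of these peaks were centred on the other sgRNAs, coverage of a site does not show that sgRNA 1 paired with it.

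The PAM itself was nearly uniform. It was AGG at 81 of the 82 perfect sites and at 200 of all 213 sites, and 78 of these 200 were covered. Of the 5 sites with GGG, the 1 perfect site was covered and the 4 mismatched ones were not. The 5 sites with CGG, 4 of them the C19G sites, and the 3 with TGG were all mismatched, and none was covered.

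The strongest covering peaks over perfect sites were at copies with sites of at least 2 other sgRNAs that were also perfect. The highest of these, chr7:125454713-125455342 in an intron of the antisense RNA gene POT1-AS1, had a fold enrichment of 26.3 with its summit 266.5 bp from the sgRNA 1 site at chr7:125454776-125454795. The next was an intergenic site, chr8:106087354-106087373, 26839 bp from a start site of ZFPM2-AS1, with 23.3. An intronic site of CERT1, which encodes a ceramide transporter (chr5:75474063-75474082), had 19.2, and one of UBE2D2, a ubiquitin-conjugating enzyme gene (chr5:139531224-139531243), with 18.7. The values were 18.2 at chr1:31483196-31483215, which is intergenic, and 17.7 at chr3:11131958-11131977, 5126 bp from a start site of the histamine receptor gene HRH1. The summit was 208.5 to 332.5 bp from sgRNA 1 at these 6 sites.

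All 4 covered sites with 2 or 3 mismatches, printed above, had perfect sites of at least 2 other sgRNAs beside them. They were the T6G and G10A site in an untranslated exon of a transcript of DYNC1H1, the dynein heavy chain gene (fold enrichment 23.6), the A3C and G11A site between genes near MRPL20, which encodes a mitochondrial ribosomal protein (21.4), the C5T and G10A site 3915 bp from a start site of ZNF83 (12.98), and the site with A4T, G10A and G17C in an intron shared by NLRP2 and NLRP7 (13.4). The summits lay 225.5 to 276.5 bp from the sgRNA 1 site. None of these peaks was centred on the mismatched site.

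H3K27ac was infrequent at the sgRNA 1 sites in cells without LTR2B sgRNAs. A peak of the mark overlapped 3 of 213 HL-60 sites (1.41%, 0.480 to 4.06), 9 Molm13 sites (4.23%, 2.24 to 7.83), 14 OCI-AML3 sites (6.57%, 3.96 to 10.7) and 7 K562 sites (3.29%, 1.60 to 6.63). Over the sites of all 4 sgRNAs the shares were 1.01%, 6.14%, 6.35% and 5.93%, each inside the interval for sgRNA 1. H3K27ac peaks covered 0.780%, 1.89%, 2.27% and 2.49% of these chromosomes. The sgRNA 1 share was above this value in every line. The value lay below the interval in Molm13 and OCI-AML3 and inside it in HL-60 and K562. Of the 82 perfect sites, HL-60 had 1 marked, Molm13 2, OCI-AML3 7 and K562 3. In all, 19 of the 213 sites were marked in any line, 10 of them in 1 line, 6 in 2, 1 in 3 and 2 in all 4. Since the lines differ in their lists and 2 of them carried a vector, no test between lines was made.

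The 2 sites marked in all 4 lines were both covered by a dCas9 peak in K562. The perfect site at chr1:31483196-31483215 had an H3K27ac fold enrichment of 4.73 (HL-60), 7.25 (Molm13), 5.08 (OCI-AML3) and 3.35 (K562). The C8T site at chr19:52923761-52923780, in an exon of the non-coding gene ZNF888-AS1 and 300 bp from a start site of ZNF888, had 4.78, 9.75, 3.82 and 4.27 in the same order. The medians over all H3K27ac peaks of the lists were 3.60, 3.80, 2.95 and 2.85, and the values of both sites were above them in every line. Both sites were picked for having a peak in every list, so this comparison is no independent evidence. A G10A site at chr7:135171398-135171417 was marked in Molm13, OCI-AML3 and K562 (10.4, 4.97 and 3.24), and there the dCas9 peak ended 165 bp short of sgRNA 1.

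In K562, the line with both measurements, 3 perfect sites carried H3K27ac in the empty-vector cells. Of these 3, 2 were covered by dCas9, against 40 of the 79 others (odds ratio 1.93, 0.0970 to 118, p = 1, two-sided Fisher's exact test), and 3 sites were too few to show a difference. The covered ones were the chromosome 1 site above and chr19:52735404-52735423, 340 bp from a start site of the zinc finger gene ZNF611. The third, chr19:52898850-52898869, lay 1166 bp from a start site of ZNF320. Its H3K27ac fold enrichment was 3.73, and the dCas9 peak, centred 249.5 bp away at a 1-mismatch site of sgRNA 3, had a fold enrichment of 5.50 and ended 146 bp from sgRNA 1. A second uncovered perfect site with H3K27ac, chr8:42741839-42741858, was marked in Molm13 (3.15, q = 0.012) and OCI-AML3 (2.03, q = 0.049), with a dCas9 summit 221.5 bp away.

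By the GENCODE annotation, 114 of the 213 sites were intergenic, 91 intronic, 6 in untranslated exon parts and 2 in exons of non-coding genes. Dead Cas9 covered 41 of the 114 intergenic and 33 of the 91 intronic sites, and among perfect sites 21 of 38 and 20 of 40. The median distance to the nearest transcription start site was 10137 bp over all sites, and 16 sites lay within 500 bp of one, 7 of them perfect.

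Of 26 genes that the study names for various reasons, 16 had an sgRNA 1 site within 50 kb, at 15 different sites. A dCas9 peak covered 9 of these sites and had its summit within 600 bp of the other 6. Over all 213 sgRNA 1 sites, 79 were covered (37.1%) and 154 had a summit within 600 bp (72.3%). The genes were in part chosen by the study on these cells, so the counts near them are no independent evidence of targeting. Among the covered sites were the G10A site in an intron of FLOT2, a membrane scaffold gene (chr17:28893720-28893739, dCas9 fold enrichment 20.1, with H3K27ac in Molm13 and OCI-AML3), the G10A site in RPS23 (21.4) and the perfect sites near the zinc finger genes ZNF486 (10.9) and ZNF611 (12.0) and near ASRGL1 (11.8). At the perfect site near ZNF586, the peak (10.2) ended 18 bp short of sgRNA 1, and at the C8A site 2688 bp from a start site of APOL1 (chr22:36250374-36250393) the peak (6.82) ended 3 bp short. The 10 genes without an sgRNA 1 site within 50 kb included APOC1, APOC2, APOE, SCIN and BIK.

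Reads that mapped to several places had been discarded, so repeat copies were compared for how much of their sequence is unique. Within 250 bp of perfect sites, the median share of 75-base stretches that occur once in the genome was 93.2% at the 42 covered and 87.3% at the 40 uncovered sites (difference 5.87 percentage points, p = 0.0393, two-sided permutation test). Within 100 bp the medians were 90.9% and 71.0% (difference 19.8 points, p = 0.0050, permutation test). With 50-base stretches within 250 bp the difference was 3.44 points and did not pass the test (p = 0.335, permutation test). The 12 perfect sites without a summit within 600 bp, by contrast, had a median of 95.3%, against 91.4% at the 70 with one. Within 100 bp of perfect sgRNA 1 sites the median was 86.9%, against 93.3%, 95.2% and 94.8% for the perfect sites of sgRNAs 2, 3 and 4 near an sgRNA 1 site. Within 250 bp the medians were closer, 91.7% for sgRNA 1 against 91.4%, 93.7% and 93.8%, and the order of sgRNAs 1 and 2 was turned. These differences were not tested.

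Many sites were not independent of each other. A second sgRNA 1 site lay within 10 kb on the same strand at 51 of the 213 sites, which formed 25 pairs, counting 1 group of 3 as a pair, with a median of 5974 bp between the members. In 16 pairs both members had a dCas9 summit within 600 bp, in 6 pairs 1 had, and in 3 neither. At SELENOP, the perfect site at chr5:42819467 was covered, while the perfect site 6162 bp away (chr5:42813305-42813324) had no summit within 600 bp. Of another pair, 5840 bp apart, both perfect sites were covered, chr4:91353441 and chr4:91359281, both in an intron of CCSER1. Of the 8 sites on the Y chromosome, which K562 cells lack, none was covered, and 2 had the coordinates of X sites in the region that both chromosomes share. Without the Y chromosome, 42 of 80 perfect sites (52.5%) and 33 of 84 sites with 1 mismatch (39.3%) were covered.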

How the data were processed

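Peak lists of 5 ChIP-seq libraries were used, 4 for H3K27ac and 1 for dCas9. By the methods of the study, the authors used Trim Galore for trimming and Bowtie2 for alignment to hg38, kept uniquely mapped reads and called peaks with MACS2 2.1.1 at a q-value of 0.05, with the broad option for H3K27ac. The control library of the caller is not given in the sources used here. The deposited lists give the authors' score, fold enrichment (a ratio to the local background), and −log10 of the p-value and q-value of each peak, and for dCas9 the summit. The H3K27ac lists hold q-values up to 0.0995. No read numbers were given, so depth and the precision it sets are unknown.

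The sgRNA sequences were taken from the reagent list of the study. Sites were searched in hg38 with at most 3 mismatches and an NGG motif, and sites within 600 bp were joined into loci. Repeat annotation was not used, so no site was assigned to a copy of LTR2B. The study predicts that its sgRNAs also target some copies of the related LTR2 family. Where copies are mentioned for single sites, the sequence around the site is meant. Genes are from GENCODE 44, and coordinates are 1-based. Shares carry 95% Wilson intervals. Fisher's exact tests, the exact conditional test over strata and permutation tests of medians (100000 resamples) were two-sided, with Benjamini-Hochberg adjustment within families of 3. Sites and peaks are not replicates.

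The members, gene list and comparisons were chosen with earlier results of these data known. Named sites were the 6 perfect sites with the highest covering peak, covered sites with 2 or 3 mismatches, covered sites without a neighbour (none were found), uncovered perfect sites with H3K27ac, sites with H3K27ac in at least 3 lines, and the site nearest to each of 26 genes. The 7 peaks centred on sgRNA 1, the sites without a perfect neighbour and the paired sites were singled out after their values were seen. SciPy 1.17.1, NumPy 2.4.6, pandas 2.3.3, numba 0.67.0 and pysam 0.24.0 were used under Python 3.11.15, and the site search and tests were tested on simulated data.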

Additional observations from a re-analysis of the deposited data

How the results depend on the processing

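Of 93 recomputed values, 71 kept their direction and their side of the threshold (or stayed within the interval), 9 shares moved out of their interval, 6 results fell below the threshold, 4 passed it and 3 changed sign. Counting a site when a summit lay within 200 bp gave 13.4%, 8.99% and 0% for 0, 1 and 2 mismatches, and within 100 bp 6.10%, 2.25%, 0% and 0% for 0 to 3. Sites without a neighbour gave 0% for 1 and 3 mismatches. With the summit within 200 bp, the odds ratio for 2 against 3 mismatches became 0 (adjusted p = 1, exact test), that for a perfect neighbour 0.916 (9 of 68 against 2 of 14) and that against sgRNA 4 0.119. Against sgRNA 4 it was 0.0485 with the summit within 100 bp and 0.146 at loci with a perfect site of 1 sgRNA only (0.162 there without the Y chromosome). The odds ratio for the mismatch position was 0.802 with positions 9 to 20, 0.567 without G10A, 0.389 without the Y chromosome and 0.409 where at least 50% of 75-base stretches were unique. That for a perfect sgRNA 1 site within strata was 2.49 without the Y chromosome. That for K562 H3K27ac was 0.951 with peaks within 500 bp. The difference in uniqueness was 3.44 percentage points with 50-base stretches (p = 0.335, permutation test). The causes of these changes were not tested, except that fewer sites meet a summit criterion and fewer remain after a restriction. A dCas9 q-value below 0.001 changed no call. The summit within 100 bp, the Y chromosome, uniqueness and G10A restrictions, the comparison with loci lacking an sgRNA 1 site and the reach of peaks were added after the data were seen. No paired analysis was possible because peak lists of 1 library per group were compared. The odds ratio for 1 against 2 mismatches has no finite value under either summit limit, since 0 of 16 sites were counted, and with sites without a neighbour only the 1-mismatch and 3-mismatch classes were left. The lists give no depth and 1 library per line, so spread between replicates is unknown.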
